A study of Sus scrofa with 6 samples.

Results

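The genes described here code for the proteins of the spliceosome core, for the SR proteins and hnRNPs that bind pre-mRNA, for the DDX and DHX RNA helicases and for the numbered RBM RNA-binding proteins. They were chosen by gene symbol alone: every symbol beginning with SNRP, SF3, U2AF, PRPF, SRSF or HNRNP, those beginning with LSM, DDX, DHX or RBM followed by a digit, and EFTUD2, apart from 1 helicase symbol that the rule leaves out. The rule itself reads no signal, though it was set with earlier results of these data known. In total 106 of the 6765 genes on the array were members. They were measured by 164 probe sets, and 68 of the members had 1 probe set. The study compared the pig intestinal epithelial cell lines IPEC-J2 and IPEC-1 on Affymetrix Porcine Genome Arrays, with 3 arrays for each line. The question behind the comparison was how gene expression differs at baseline between these models of the intestinal epithelium.

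Both lines arose spontaneously in culture from the small intestine of newborn piglets and are not transformed. Neither line was treated, infected or genetically altered, and both grew on membrane inserts at 39 °C in the same serum- and EGF-containing medium, for 7 days by the sample labels and for a longer time by the study's methods. The 3 arrays of a line came from independent experiments with that 1 line. A difference between the lines therefore cannot be told apart from a difference between the animals they came from or between their histories in culture. A fixed amount of 500 ng RNA was used per array, so a signal was relative to the labelled RNA of the culture, and fewer cells expressing a gene cannot be told apart from less RNA per cell.

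A pre-mRNA becomes an mRNA when its introns are cut out by the spliceosome, a machine built anew on each intron from small nuclear ribonucleoproteins, the snRNPs. The U1 snRNP marks the 5′ splice site and the U2 snRNP the branch point, after which the U4/U6.U5 tri-snRNP joins, and helicases of the DDX and DHX families rearrange the RNAs at each step. SR proteins and hnRNPs bind exons and introns and influence which splice sites are used. Several SR proteins and hnRNPs also regulate the splicing of their own transcripts.

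Signals were log2 values, and the lowest, exactly 4, is called the floor below. It was given to between 40.5% and 48.3% of the probe sets of an array, and IPEC-J2 replicate 1 was the dimmest, with a 75th percentile of 8.31 against 8.51 to 8.56 on the other arrays. Of 9 epithelial markers on the array, none was at the floor on all arrays, and their summed linear signal was 48210 to 54360 in IPEC-J2, against 36550 to 38340 in IPEC-1. In the limma fit 3 of them were called higher in IPEC-J2 (VIL1, CLDN3 and CLDN7) and KRT19 was called lower, while EPCAM averaged 13.55 in IPEC-J2 and 13.39 in IPEC-1. Of 20 markers of stroma, smooth muscle, endothelium and leukocytes, 12 gave floor values on all 6 arrays, while THY1, a surface protein of fibroblasts and other cells, averaged 9.55 in IPEC-J2 and stayed at the floor in IPEC-1. The summed linear signal of the stroma list was 811 to 1028 in IPEC-J2, against 166.1 to 175.8 in IPEC-1, and THY1 made up this gap, since of the other stroma markers COL1A2 and PDGFRB differed by -0.03 and -0.84 and COL3A1, DCN and LUM were at the floor. The endothelial marker PECAM1 and the leukocyte marker CD3E were called lower in IPEC-J2, with means of 4.29 and 4.00 in IPEC-J2, against 5.75 and 5.93 in IPEC-1. These means lie below the noise levels given in the next paragraph, as do those of CLDN3 (6.14 in IPEC-J2 and 4.00 in IPEC-1). The means of PECAM1 and CLDN3 average 2 probe sets each, while the levels were set on single probe sets. The study's qPCR found CLDN3 higher in IPEC-J2. Of 11 genes of cycling cells, 0 were called in the limma fit, and their summed linear signal was 2322 to 4214 in IPEC-J2, against 1255 to 5540 in IPEC-1. The part of these markers in the differences described here was not tested.

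Of the 106 members, 99 were above the floor on all 6 arrays and 3 (U2AF2, DDX25 and DDX54) were at the floor on all of them. The remaining 4 members, DDX4, DDX51, DDX60 and SRSF12, were at the floor on some arrays. The 103 members above the floor on at least 1 array are called measured here. Both line means lay above 7.78 in IPEC-J2 and 7.85 in IPEC-1 for 76 members. These levels are the 95th percentile of the signals that single arrays gave for probe sets whose remaining arrays of the same line were at the floor, so that a mean below them is hard to tell from noise.

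Most members had a lower signal in IPEC-J2 than in IPEC-1, and the differences were small. Of the 103 measured members, 26 (25.2%) were called lower in IPEC-J2, meaning an adjusted p under 0.05 from limma, with p-values adjusted by Benjamini and Hochberg's method over the 6765 genes, and 2 (1.94%) were called higher. Over all measured genes, 13.8% were called lower and 11.6% higher (11.2% and 9.46% of all genes tested). On the gene mean, the members called lower were between 1.17-fold and 1.87-fold lower, with a median of 1.49-fold. None of them was more than 2-fold lower on that mean. Such means include probe sets at the floor or near noise. The 1 measured probe set of DHX30, the member at 1.17-fold, differed by -0.66, and the brighter one of DDX39B by -1.24. The difference was negative for 78 members (75.7%), against 54.5% of all measured genes. The median log2 difference, IPEC-J2 minus IPEC-1, was -0.33 over the measured members and -0.05 over all measured genes.

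The lines were also apart for many members array by array. The IPEC-J2 arrays lay below all IPEC-1 arrays for 56 members, against 27.6% of all measured genes, and above all of them for 8 members, against 19.8%. In the plot of cumulative shares, the curve of the members lay to the left of the other genes near 0 and was flatter in both tails: 5 of 103 members (4.85%) differed by 2-fold or more either way, against 17.3% of all measured genes, and 23 differed by 0.2 or less on the log2 scale. Replicates of a line also varied little, with a median SD of 0.153 for the 99 members above the floor on all arrays and of 0.179 for the other 4231 genes of that kind.

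**Figure D1:**
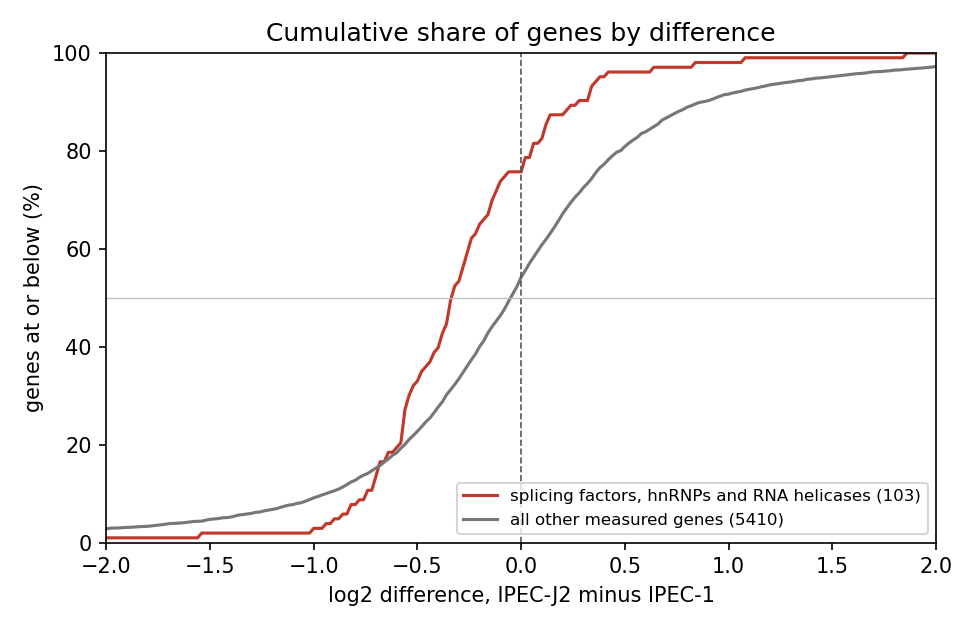
Cumulative share of genes in percent (vertical axis) against the log2 difference, IPEC-J2 minus IPEC-1 (horizontal axis), for the 103 measured members and for the 5410 other measured genes. The curve of the members is shifted to negative values, with a median of -0.33 against -0.05, and few members lie beyond 1 log2 unit either way.

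The median was also negative between arrays that share a culture note. By the labels, IPEC-J2 replicate 3 shared its culture note with IPEC-1 replicate 1 (note A), and IPEC-J2 replicate 1 shared its own with IPEC-1 replicate 2 (note B). Within note A the members had a median difference of -0.315, with 0 for all measured genes, and within note B of -0.42, with -0.14. With the culture notes as a block, 13 members were called lower and 0 higher, against 6.87% and 6.6% of all measured genes. The third pair of this block, IPEC-J2 replicate 2 and IPEC-1 replicate 3, carries different notes. Leaving out 1 array at a time gave 10 lower calls without IPEC-J2 replicate 3, 15 without IPEC-J2 replicate 1, 26 without IPEC-J2 replicate 2, 17 without IPEC-1 replicate 1 or 2 and 14 without IPEC-1 replicate 3. Higher calls numbered 1 without IPEC-J2 replicate 3 or IPEC-1 replicate 1, 3 without IPEC-J2 replicate 1, and 2 otherwise. Of all 6765 genes, 6.16% to 8.46% were called lower in these fits and 5.25% to 9.06% higher. The lower share of all genes was smallest, 6.16%, without IPEC-J2 replicate 3, as was the count of members.

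**Figure D2:**
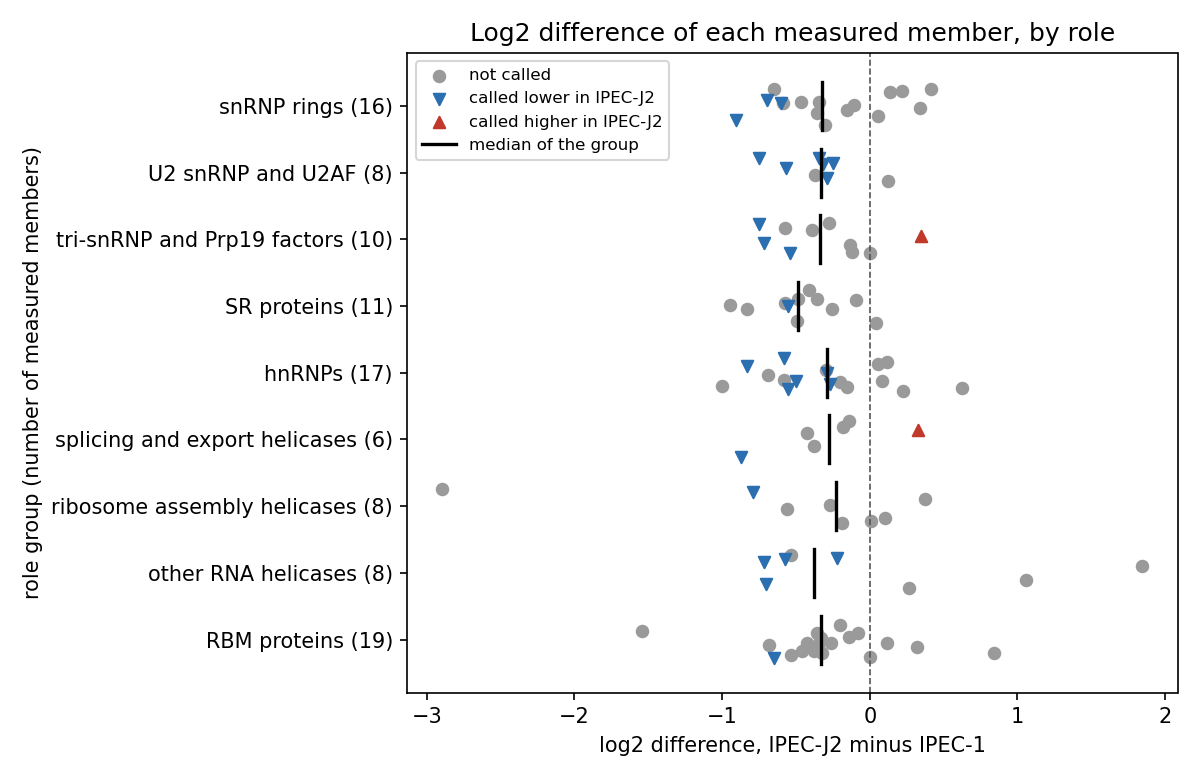
Log2 difference, IPEC-J2 minus IPEC-1 (horizontal axis), of each measured member in 9 role groups (vertical axis, with the number measured), with points moved up or down at random so that they can be seen. Triangles pointing down are the 26 members called lower in IPEC-J2, triangles pointing up the 2 called higher, grey points were not called, and the black line is the median of a group, which is negative in all 9 groups.

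Against the 13.8% of all measured genes, the share of measured members called lower was 75% in the U2 snRNP group, 50% in the other RNA helicases, 35.3% in the hnRNPs and 30% in the tri-snRNP group. It was 18.8% in the snRNP rings and 16.7% in the splicing and export helicases, and it was below that background in the ribosome assembly helicases (12.5%), the SR proteins (9.09%) and the RBM proteins (5.26%). With 6 to 19 measured members a group, these shares are counts of few genes. They also depend on the fit. Without the genes at the floor throughout, SRSF1, SRSF3, SRSF7 and SRSF11 were called lower (adjusted p = 0.0398, 0.0384, 0.0262 and 0.0474 from limma). Of the U2 snRNP group, only SF3B1 and SF3B6 were called in that fit (adjusted p = 0.0176 and 0.00344).

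Of the 8 measured U2 snRNP and U2AF proteins, 6 were called lower in IPEC-J2 and 0 higher. With the culture notes as a block 1 of the 8 was called, SF3B6, against 3 of 8 other RNA helicases and 4 of 17 hnRNPs, so the order of the role groups by their calls depends on the fit. Array by array, all IPEC-J2 arrays lay below all IPEC-1 arrays for 7 of the 8, against 27.6% of all measured genes. The U2 snRNP binds the branch point through the SF3a and SF3b complexes, of which SF3B6, also called p14, is the subunit that lies next to the branch-point adenosine. SF3B6 had log2 signals of 10.39, 10.44 and 10.36 in IPEC-J2, against 11.08, 11.17 and 11.18 in IPEC-1. The replicates of each line lay close together and the lines far apart. The log2 difference was -0.75 (SE 0.0377), which is 1.68-fold lower, with an adjusted p of 0.000869 from limma. It was -0.72 within note A and -0.78 within note B.

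SF3B1, the large scaffold of SF3b that is often mutated in human myelodysplasia, had signals of 9.30, 9.50 and 9.48 in IPEC-J2, against 9.88, 9.98 and 10.12 in IPEC-1. The lines did not overlap, and the difference was -0.57 (SE 0.0866, adjusted p = 0.0170 from limma, and 0.0653 with the culture notes as a block). The SF3a subunits SF3A3 and SF3A1 differed by -0.34 and -0.32 (adjusted p = 0.0381 and 0.0203 from limma), and the SF3b subunits SF3B4 and SF3B2 by -0.29 and -0.25 (adjusted p = 0.0332 and 0.0104). These 4 differences were smaller than those of SF3B1 and SF3B6 and their replicates lay close together. With the culture notes as a block their adjusted p from limma was 0.147, 0.0699, 0.109 and 0.0547 in the order just given. In a fit without the genes that were at the floor throughout, it was 0.0598, 0.0545, 0.0759 and 0.0823.

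The small SF3b subunit SF3B5 was not called and had signals of 10.36, 10.61 and 10.43 in IPEC-J2, against 10.07, 10.55 and 10.40 in IPEC-1. Its arrays overlapped between the lines (difference 0.13, adjusted p = 0.685 from limma). U2AF1L4, a relative of the small subunit of the 3′ splice site factor U2AF, differed by -0.37 and was not called (adjusted p = 0.0943 from limma). U2AF2, the large subunit that binds the polypyrimidine tract, was at the floor on all 6 arrays, so its single probe set gave no measurement in either line.

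The next role group covers the proteins that ring the spliceosomal RNAs and their relatives: Sm proteins around U1, U2, U4 and U5, LSm proteins around U6, and proteins particular to U1 or U2. Of 16 measured members, 3 were called lower in IPEC-J2 and 0 higher, with a median difference of -0.32. LSM3, an LSm protein of the U6 ring and of the related cytoplasmic ring that takes part in mRNA decay, had signals of 9.70, 9.92 and 9.65 in IPEC-J2, against 10.59, 10.75 and 10.64 in IPEC-1. The lines were apart by several times the replicate spread, with a difference of -0.90 (SE 0.0909, 1.87-fold lower, adjusted p = 0.00613 from limma). LSM14A, a protein of P-bodies, the cytoplasmic granules of stored and decaying mRNA, had signals of 10.49, 10.38 and 10.50 in IPEC-J2, against 11.09, 11.28 and 11.08 in IPEC-1 (difference -0.69, SE 0.072, adjusted p = 0.00658). SNRPC, the U1 protein that helps U1 to hold the 5′ splice site, had signals of 10.53, 10.55 and 10.46 in IPEC-J2, against 11.17, 11.20 and 10.98 in IPEC-1 (difference -0.60, SE 0.0706, adjusted p = 0.00874, and 0.0651 with the culture notes as a block). For all 3 genes the highest IPEC-J2 array lay below the lowest IPEC-1 array.

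None of the other measured LSm proteins of the U6 ring was called. LSM2 was lower on all IPEC-J2 arrays but not called (difference -0.47, adjusted p = 0.0828 from limma), whereas LSM6 and LSM7 were higher on all IPEC-J2 arrays, also without a call (0.41 and 0.34, adjusted p = 0.135 and 0.0651). The gene means of LSM6, 7.18 in IPEC-J2 and 6.76 in IPEC-1, lay below the noise levels given above. They average 3 probe sets, the brightest of which lay above these levels, at 8.97 in IPEC-J2 and 8.68 in IPEC-1. That probe set differed by 0.29 with overlapping arrays and was not called (adjusted p = 0.336 from limma over all probe sets).

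Among the U1 and U2 proteins, SNRPA of U1 differed by -0.59 without a call (adjusted p = 0.0841 from limma), with signals of 8.51, 8.57 and 8.32 in IPEC-J2, against 9.37, 8.94 and 8.85 in IPEC-1. Its U2 relative SNRPB2 was higher on all IPEC-J2 arrays without a call (difference 0.22, adjusted p = 0.194), and SNRPA1, the partner of SNRPB2 in U2, differed by -0.16 with overlapping arrays. The Sm core proteins SNRPD3 and SNRPF were lower on all IPEC-J2 arrays without a call (differences -0.35 and -0.36, adjusted p = 0.0754 and 0.108). SNRPD1 (-0.30), SNRPG (-0.11), SNRPB (0.05) and SNRPN (0.14) had arrays that overlapped between the lines. LSM12 had signals of 6.05 to 7.74 in IPEC-J2 and 6.30 to 7.87 in IPEC-1, and its replicates spread too widely for its difference of -0.65 to be read.

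The factors of the tri-snRNP and of the steps around its entry gave calls in both directions. Of 10 measured members, 3 were called lower in IPEC-J2 and 1 higher. PRPF18, which acts in the second step of splicing, had signals of 8.60, 8.45 and 8.54 in IPEC-J2, against 9.23, 9.43 and 9.18 in IPEC-1 (difference -0.75, SE 0.0838, adjusted p = 0.00782 from limma). PRPF38A, a protein of the complex formed before activation, had signals of 9.41, 9.47 and 9.35 in IPEC-J2, against 10.08, 10.32 and 9.98 in IPEC-1 (difference -0.72, SE 0.102, adjusted p = 0.0141, and 0.0717 with the culture notes as a block). PRPF3, a U4/U6 protein, had signals of 8.16, 8.40 and 8.28 in IPEC-J2, against 8.97, 8.72 and 8.78 in IPEC-1 (difference -0.54, SE 0.0975, adjusted p = 0.0255, and 0.0742 with that block). In each of the 3 the lines were separate.

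EFTUD2, the GTPase of the U5 snRNP, was the clearest of the 2 members called higher. It had signals of 9.70, 9.71 and 9.65 in IPEC-J2, against 9.40, 9.36 and 9.26 in IPEC-1, and every IPEC-J2 array lay above every IPEC-1 array. The difference was 0.35 (SE 0.0436, 1.27-fold higher, adjusted p = 0.0102 from limma, and 0.0751 with the culture notes as a block). PRPF31, mutated in some human families with retinal degeneration, was lower on all IPEC-J2 arrays without a call (difference -0.57, adjusted p = 0.0549), as were the kinase PRPF4B (-0.39, adjusted p = 0.0786) and the U1-associated PRPF39 (-0.28, adjusted p = 0.0870). PRPF19, the ubiquitin ligase after which the activating complex is named, differed by 0.00 with overlapping arrays, PRPF4 by -0.13 and PRPF38B by -0.12.

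**Figure D3:**
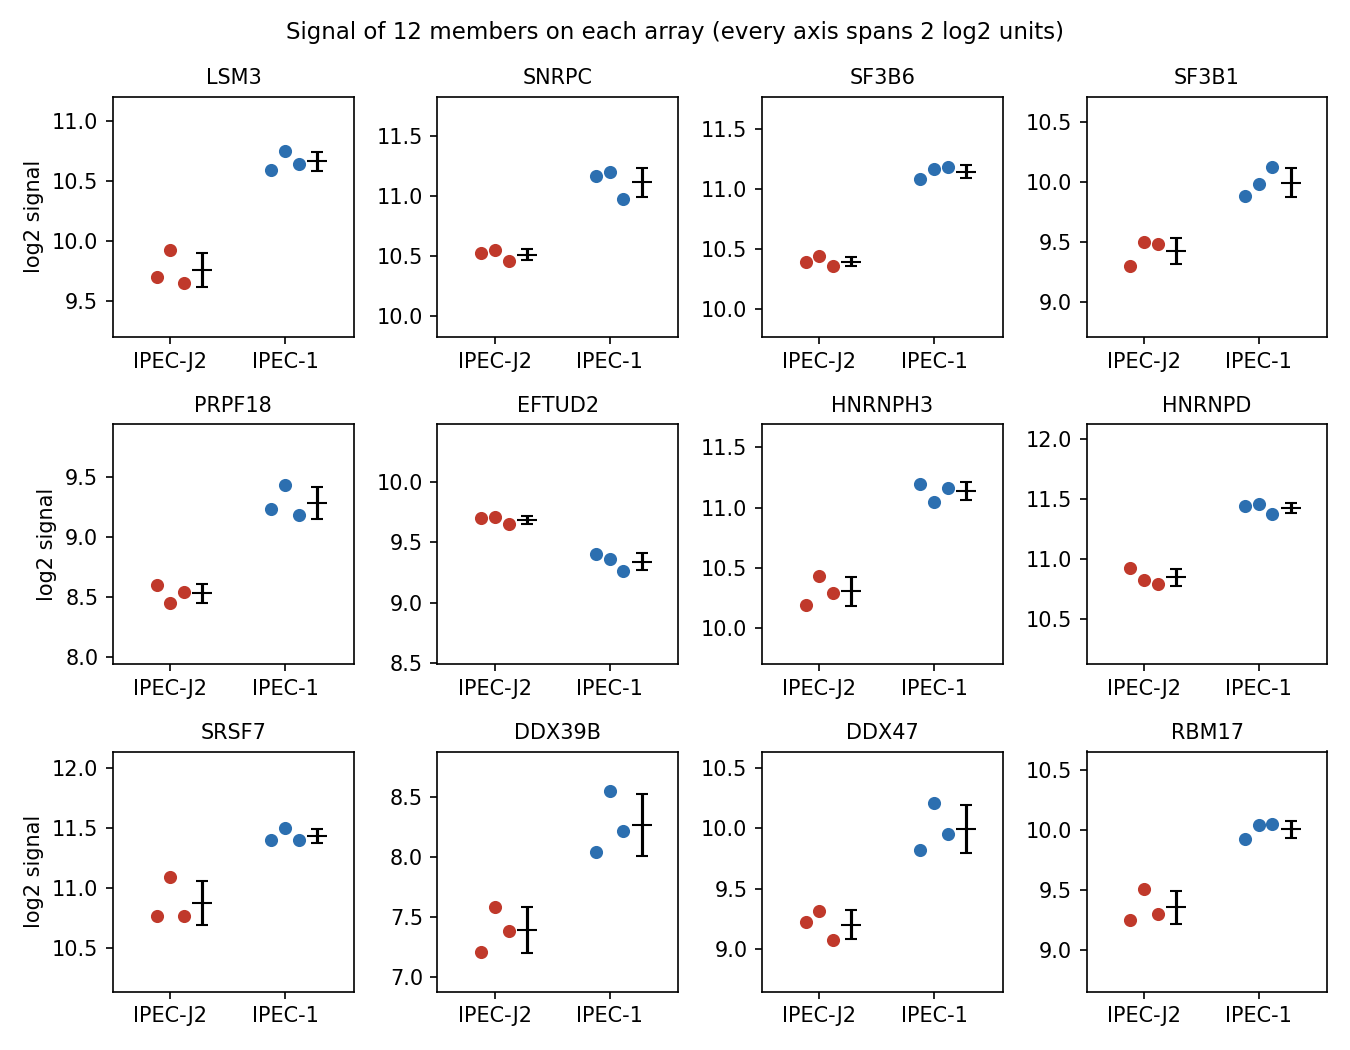
Log2 signal (vertical axis) of 12 members on each array, with the 3 IPEC-J2 arrays left of the 3 IPEC-1 arrays as points and the mean ± SD of each line beside them in black. Each vertical axis spans 2 log2 units, and the lines are apart in all 12 panels, with IPEC-J2 above IPEC-1 in the panel of EFTUD2 and below it in the others.

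The SR proteins carry arginine-serine repeats and mostly promote the use of nearby splice sites. They had the most negative median of the 9 role groups, -0.48, but 1 call in the fit that kept all genes. Of 11 members, all measured, 8 lay lower on all IPEC-J2 arrays and 0 higher, against 27.6% and 19.8% of all measured genes. The call was SRSF7, with signals of 10.77, 11.09 and 10.77 in IPEC-J2, against 11.40, 11.50 and 11.40 in IPEC-1 (difference -0.56, SE 0.106, adjusted p = 0.0297 from limma, and 0.109 with the culture notes as a block). SRSF3, its closest relative and an SR protein that also acts in mRNA export, had signals of 11.34, 11.07 and 10.84 in IPEC-J2, against 11.61, 12.22 and 11.91 in IPEC-1. Its difference of -0.83 was larger than that of SRSF7, but its replicates spread more, so that it was not called (adjusted p = 0.0662) and was called with the culture notes as a block (adjusted p = 0.0185).

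The other SR proteins below all IPEC-1 arrays were SRSF5, SRSF1, SRSF11, SRSF10, SRSF9 and SRSF2. SRSF5 had signals of 10.16, 10.17 and 9.56 in IPEC-J2, against 10.26, 11.32 and 11.15 in IPEC-1 (difference -0.95, adjusted p = 0.166 from limma). SRSF1, the founding member of the family, had signals of 8.92, 9.28 and 9.05 in IPEC-J2, against 9.85, 9.59 and 9.53 in IPEC-1 (difference -0.57, adjusted p = 0.0537). SRSF11, SRSF10, SRSF9 and SRSF2 differed by -0.50, -0.48, -0.41 and -0.36, with adjusted p between 0.0534 and 0.206. SRSF4 and SRSF6 differed by 0.04 and -0.09 with overlapping arrays. SRSF12 was at the floor on IPEC-J2 replicate 1 and between 5.81 and 6.78 on the other arrays, below the level at which single arrays could be told from noise.

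The hnRNPs, abundant nuclear proteins that coat pre-mRNA and often repress splice sites, were split between members that were lower and members that were not. Of 17 members, all measured, 6 were called lower in IPEC-J2 and 0 higher, with a median difference of -0.29. HNRNPH3, a relative of the G-run binding protein HNRNPH1, had signals of 10.19, 10.43 and 10.29 in IPEC-J2, against 11.20, 11.05 and 11.16 in IPEC-1 (difference -0.83, SE 0.0789, 1.78-fold lower, adjusted p = 0.00520 from limma). HNRNPD, also called AUF1, which binds AU-rich elements and influences mRNA decay, had signals of 10.93, 10.83 and 10.79 in IPEC-J2, against 11.44, 11.46 and 11.38 in IPEC-1 (difference -0.58, SE 0.0456, adjusted p = 0.00313). HNRNPR had signals of 9.61, 9.76 and 9.44 in IPEC-J2, against 10.01, 10.25 and 10.20 in IPEC-1 (difference -0.55, SE 0.114, adjusted p = 0.0369). The IPEC-J2 arrays of these 3 genes were all below the IPEC-1 arrays, and all 3 were also called with the culture notes as a block (adjusted p = 0.0272, 0.0257 and 0.0473 in that order). With 1 array left out, HNRNPH3 and HNRNPD were called in 6 of 6 fits, but HNRNPR in 1 of 6.

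HNRNPA2B1, which packages and sorts RNA, had signals of 9.36, 9.53 and 9.46 in IPEC-J2, against 9.86, 10.04 and 9.95 in IPEC-1 (difference -0.50, SE 0.0683, adjusted p = 0.0128 from limma, and 0.0821 with the culture notes as a block). This mean hides a disagreement between its 3 probe sets. The brightest, at 12.51 in IPEC-J2 and 12.59 in IPEC-1, differed by -0.09 and was not called, while the dimmer probe sets differed by -0.77 (adjusted p = 0.0320 over all probe sets) and -0.65 (adjusted p = 0.0644). HNRNPM and HNRNPK were called lower with small differences of -0.29 and -0.27 (adjusted p = 0.0453 and 0.0468 from limma). Both calls were lost with any 1 array left out, with the culture notes as a block (adjusted p = 0.146 and 0.0862) and in the fit without the genes that were at the floor throughout (0.0860 and 0.0972).

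Other hnRNPs had small differences and arrays that overlapped between the lines. HNRNPF averaged 12.54 ± 0.09 in IPEC-J2 and 12.46 ± 0.10 in IPEC-1, HNRNPA1 12.11 ± 0.05 and 12.06 ± 0.10, and HNRNPA3 10.24 ± 0.11 and 10.12 ± 0.19 in the same order (SD, n = 3 each). HNRNPAB ran the other way: it had signals of 11.93, 11.79 and 11.49 in IPEC-J2, against 11.02, 11.34 and 10.98 in IPEC-1. Every IPEC-J2 array was above every IPEC-1 array, but the difference of 0.62 was not called (adjusted p = 0.0676 from limma). HNRNPUL1 was 2.00-fold lower without a call (adjusted p = 0.0761), and its dimmer probe set was at the floor on 4 arrays. Its brighter probe set, at 10.04 in IPEC-J2 and 10.90 in IPEC-1, was called lower on its own (difference -0.86, adjusted p = 0.00342 over all probe sets).

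The helicases that act in splicing and mRNA export gave 1 call in each direction among 6 measured members. DDX39B, also called UAP56, which loads U2 onto the branch point and later hands mRNA to the export machinery, had signals of 7.21, 7.59 and 7.39 in IPEC-J2, against 8.04, 8.55 and 8.22 in IPEC-1 (difference -0.87, SE 0.175, adjusted p = 0.0340 from limma). The IPEC-J2 arrays were all below the IPEC-1 arrays, and the gene mean of 7.40 in IPEC-J2 averages 2 probe sets. The brighter averaged 8.49 in IPEC-J2 and 9.73 in IPEC-1 and was called lower on its own (difference -1.24, adjusted p = 0.0406 over all probe sets), while the dimmer one lay below the noise levels in both lines. The gene's call was lost with any 1 array left out and with the culture notes as a block (adjusted p = 0.136), and within the notes the difference was -0.65 (A) and -1.34 (B). DDX46, the helicase that remodels U2 at the branch point, had signals of 7.80, 7.59 and 7.82 in IPEC-J2, against 7.38, 7.37 and 7.47 in IPEC-1 (difference 0.33, SE 0.0756, adjusted p = 0.0481). Its arrays were separate, but both means lay below the levels at which signals can be told from noise, and the call was lost with the culture notes as a block (adjusted p = 0.171) and in 5 of 6 fits with 1 array left out. DDX20, a partner of SMN in snRNP assembly, was lower on all IPEC-J2 arrays without a call (difference -0.43, adjusted p = 0.124), and DHX15, which takes the spent spliceosome apart, differed by -0.14.

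Of the 8 measured helicases that act in ribosome assembly, 1 was called lower in IPEC-J2 and 0 higher. DDX47, whose yeast relative Rrp3 processes pre-ribosomal RNA, had signals of 9.22, 9.31 and 9.07 in IPEC-J2, against 9.82, 10.21 and 9.95 in IPEC-1 (difference -0.79, SE 0.128, adjusted p = 0.0196 from limma, and 0.0576 with the culture notes as a block). DDX21 and DDX50, the nucleolar relatives, differed by -0.19 and -0.56 and were not called (adjusted p = 0.243 and 0.0606). DDX51 had the largest difference of any member, -2.89, and no call (adjusted p = 0.213). Its signals were 4.00, 8.01 and 4.00 in IPEC-J2, against 8.14, 8.32 and 8.23 in IPEC-1, with 2 IPEC-J2 arrays at the floor and the remaining one close to IPEC-1.

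Among the 8 other measured RNA helicases, 4 were called lower in IPEC-J2 and 0 higher. DDX11, which carries the family's name but is a DNA helicase needed for sister chromatid cohesion, had signals of 7.59, 7.82 and 7.62 in IPEC-J2, against 8.28, 8.45 and 8.44 in IPEC-1 (difference -0.71, SE 0.0865, adjusted p = 0.00929 from limma). Its IPEC-J2 mean of 7.68 was below the noise level given above. DDX1, part of the tRNA ligase complex, had signals of 9.06, 9.38 and 9.29 in IPEC-J2, against 10.05, 9.84 and 9.95 in IPEC-1 (difference -0.70, SE 0.106, adjusted p = 0.0165). DHX29, which helps ribosomes to scan structured 5′ leaders, had signals of 7.81, 7.87 and 8.10 in IPEC-J2, against 8.55, 8.42 and 8.54 in IPEC-1 (difference -0.58, SE 0.0931, adjusted p = 0.0197). In none of the 3 did an IPEC-J2 array reach an IPEC-1 array. DHX30, a helicase of mitochondrial ribosome assembly, was called with a difference of -0.22 (adjusted p = 0.0353, and 0.101 with the culture notes as a block). It has 3 probe sets, of which 2 were at the floor throughout, and the measured one differed by -0.66 without a call of its own (adjusted p = 0.0540 over all probe sets).

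DDX6, the P-body helicase that links translational repression to mRNA decay, was higher in IPEC-J2, with signals of 9.91, 9.33 and 9.92, against 9.20, 8.11 and 8.67 in IPEC-1. Its lines did not overlap, whereas LSM14A, a partner of DDX6 in P-bodies, was called lower. The replicates of DDX6 spread widely, and its difference of 1.06 was not called (adjusted p = 0.117 from limma). DDX60, an interferon-induced helicase, was above the floor on 2 IPEC-J2 arrays (7.16 and 6.38) and on 0 IPEC-1 arrays, and DDX4, the germ cell helicase Vasa, was above it on 0 IPEC-J2 arrays and 1 IPEC-1 array (5.61).

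The RBM proteins share an RNA recognition motif and otherwise differ in function. Of 19 members, all measured, 1 was called lower in IPEC-J2 and 0 higher. On all IPEC-J2 arrays, 9 lay below all IPEC-1 arrays, against 27.6% of all measured genes, and the median difference was -0.33. The call was RBM17, also called SPF45, a factor of 3′ splice site recognition, with signals of 9.25, 9.51 and 9.30 in IPEC-J2, against 9.92, 10.04 and 10.05 in IPEC-1 (difference -0.65, SE 0.0857, 1.57-fold lower, adjusted p = 0.0117 from limma, and 0.0497 with the culture notes as a block). RBM15B, which belongs to the m6A writer complex, differed by -1.54 and was not called (adjusted p = 0.0571). Its signals were 6.32, 7.47 and 6.27 in IPEC-J2, against 8.10, 8.34 and 8.25 in IPEC-1, without overlap. Its dimmer probe set was at the floor on 2 IPEC-J2 arrays and differed by -2.19 without a call, while the brighter one, at 8.64 in IPEC-J2 and 9.53 in IPEC-1, differed by -0.89 and was called lower (adjusted p = 0.00874 over all probe sets, and 0.0719 with the culture notes as a block). RBM18 was the 1 RBM gene above all IPEC-1 arrays (difference 0.32, adjusted p = 0.126). RBM8A, a core protein of the exon junction complex, differed by -0.33 (adjusted p = 0.133), and RBM3, which is induced by cold, by -0.33 with overlapping arrays.

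Pairs of members were compared within each array, which removes differences in brightness between arrays. Some pairs are close relatives, and others, such as SF3A1 and SF3A3 or PRPF3 and PRPF4, are proteins of the same role group. Of the 29 pairs compared, 10 had 1 called member and 1 not called. In 8 of these 10 the within-array difference did not overlap between the lines. These 10 were picked by calls on the same arrays, which makes such separation likely beforehand. How often other pairs of genes separate was not computed. Over all 29 pairs, 15 did not overlap, and for each of these the exact permutation p was 0.1, the smallest possible, and 0.193 after Benjamini-Hochberg adjustment over the 29, so no pair passed. The pair furthest apart was HNRNPD and HNRNPAB. The signal of HNRNPD minus that of HNRNPAB was -1, -0.96 and -0.70 in IPEC-J2, against 0.42, 0.12 and 0.40 in IPEC-1. The lines differed by -1.20 in this gap, whose own sign has no meaning because probe sets differ in brightness.

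DDX39A lay above its close paralog DDX39B by 0.99, 0.59 and 0.47 in IPEC-J2, against 0.40, -0.34 and -0.11 in IPEC-1. Probe sets of such close paralogs may bind RNA of both genes, which could not be checked here. HNRNPH1 lay above HNRNPH3 by 1.53, 1.30 and 1.37 in IPEC-J2, against 0.38, 1.02 and 0.76 in IPEC-1. In the pair of PRPF38A and PRPF38B the differences were -0.72 and -0.12. By contrast, SRSF3 and SRSF7 overlapped between the lines (exact permutation p = 0.3), as did HNRNPD and HNRNPDL, whose differences were the same to 2 decimals at -0.58. Of each of these pairs only 1 member was called in the fit without a block. These calls therefore do not show that the members of a pair differed. With the culture notes as a block, HNRNPD and HNRNPDL were both called lower (adjusted p = 0.0257 and 0.0136 from limma).

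**Figure D4:**
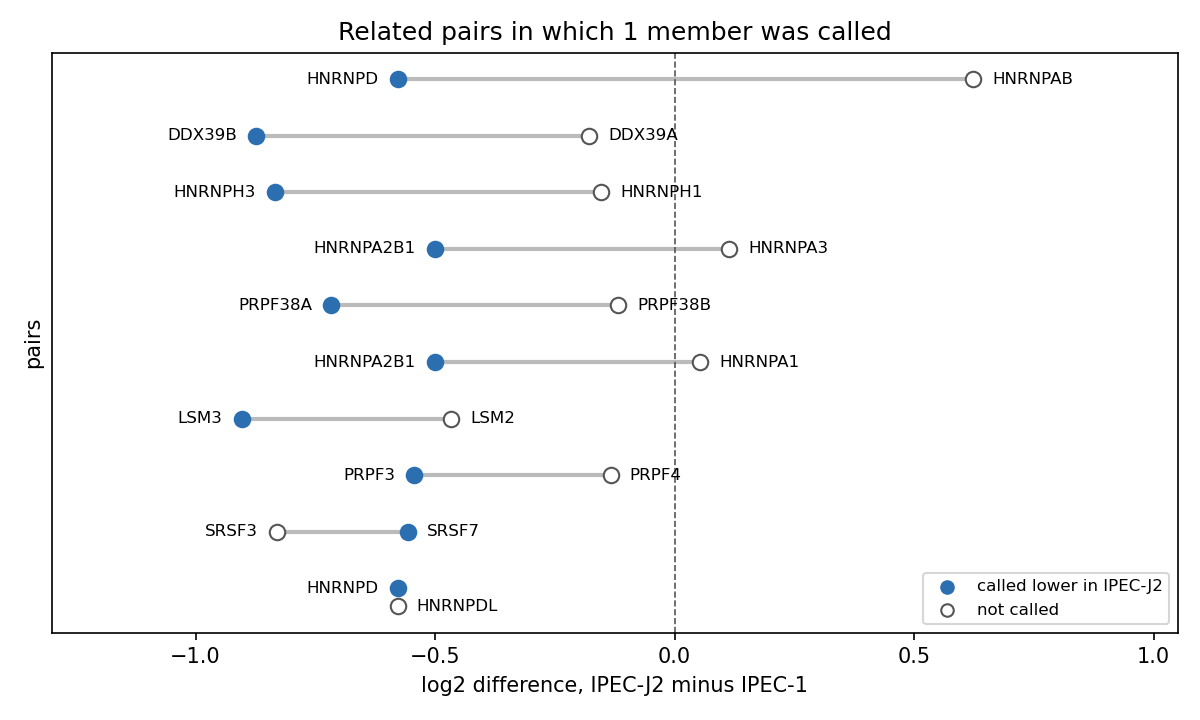
Log2 difference, IPEC-J2 minus IPEC-1 (horizontal axis), of both members of the 10 compared pairs in which 1 member was called, ordered down the page from the largest to the smallest gap. Filled points were called lower in IPEC-J2 and open points were not called, with the 2 points of HNRNPD and HNRNPDL, both at -0.58, drawn one above the other.

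The 164 probe sets of the members were also tested singly. Of these, 32 were called lower in IPEC-J2 and 2 higher, against 9.17% and 8.2% of the 16322 probe sets above the floor on at least 1 array. With the culture notes as a block, 7 were called lower and 0 higher. With 1 array left out, the lower calls numbered 9 without IPEC-J2 replicate 3, 15 without IPEC-1 replicate 3, 16 without IPEC-J2 replicate 1, 17 without IPEC-1 replicate 2, 21 without IPEC-J2 replicate 2 and 22 without IPEC-1 replicate 1. The shares of all probe sets given above belong to the fit without a block, so these counts have no background beside them. Of the 34 members with more than 1 measured probe set, 29 had probe sets that all differed in the same direction, and 0 members had probe sets called in opposite directions. Beside the genes called on their mean, 10 had a probe set called on its own: HNRNPC, HNRNPUL1, RBM15B, RBM19, RBM26, RBM5, SRSF1, SRSF11, SRSF6 and SRSF9. HNRNPC, a general hnRNP that binds uridine tracts, is an example. Its brighter probe set had signals of 10.84, 10.96 and 10.92 in IPEC-J2, against 11.54, 11.34 and 11.37 in IPEC-1 (difference -0.51, adjusted p = 0.0189 over all probe sets, and 0.0860 with the culture notes as a block), while its dimmer one was at the floor on IPEC-J2 replicate 1.

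SRSF6 was the member whose probe sets disagreed most clearly. It has 6 probe sets, of which 4 were lower in IPEC-J2 by 0.40 to 0.55 without a call. Another was higher by 0.50 without a call, and the remaining one was called higher, with signals of 10.27, 10.45 and 10.54 in IPEC-J2, against 9.73, 9.65 and 9.46 in IPEC-1 (difference 0.81, adjusted p = 0.0187 from limma over all probe sets). That call was lost with the culture notes as a block (adjusted p = 0.0949) and in 4 of 6 fits with 1 array left out. The gene mean of -0.09 averages probe sets that differ in sign. RBM19 was similar: 1 probe set was called lower (-0.46, adjusted p = 0.0201, and 0.0772 with the culture notes as a block) while the other differed by 2.14 without a call, being at the floor on 2 IPEC-1 arrays. The transcript parts that these probe sets detect were not analysed here.

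**Figure D5:**
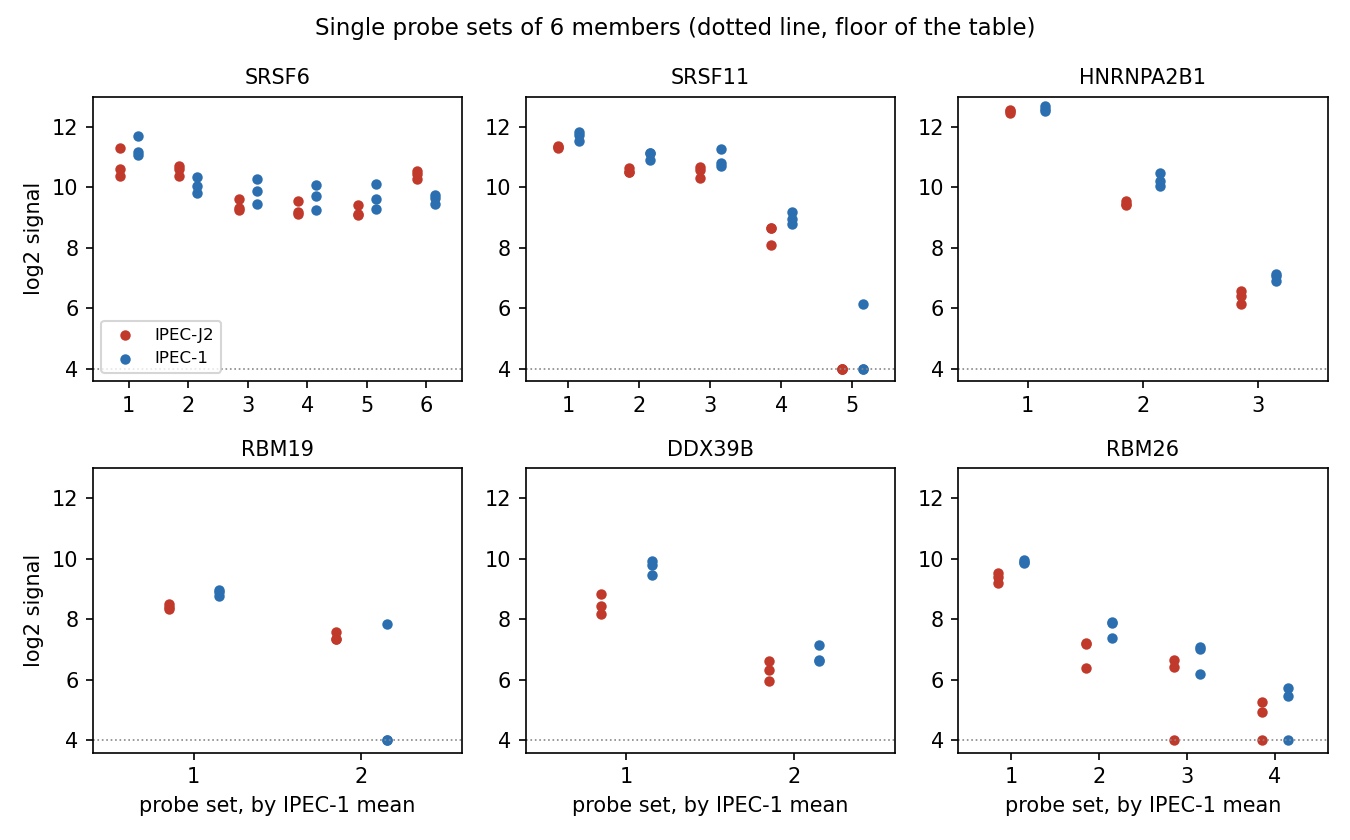
Log2 signal (vertical axis) of each probe set of 6 members on each array, with the 3 IPEC-J2 arrays left of the 3 IPEC-1 arrays and the probe sets ordered from bright to dim by their IPEC-1 mean (horizontal axis). For SRSF6 the IPEC-J2 points lie above those of IPEC-1 in some probe sets and below them in others, and for HNRNPA2B1 the brightest probe set differs by -0.09 while the others differ by -0.77 and -0.65.

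Genes of the same pathway outside the symbol rule were described from a list of 173 spliceosome, snRNP assembly, splicing regulator and exon junction genes, of which 101 were on the array and 98 were measured. Of these 98, 16 (16.3%) were called lower in IPEC-J2 and 5 (5.1%) higher, against 13.8% and 11.6% of all measured genes, so the share of lower calls was near the background. With the culture notes as a block 9 were called lower and 4 higher, against 6.87% and 6.6% of all measured genes. The median difference was -0.24, against -0.05 over all measured genes. The lower calls numbered 9 without IPEC-1 replicate 3 and 10 without IPEC-J2 replicate 3, and the higher calls 3 without IPEC-J2 replicate 2 and 2 without IPEC-J2 replicate 3. In the same order, 7.3% and 6.16% of all 6765 genes were called lower in these fits, and 5.76% and 5.25% higher. GEMIN2, which holds the ring of Sm proteins during its assembly, had signals of 8.82, 9.15 and 9.18 in IPEC-J2, against 10.34, 10.40 and 10.37 in IPEC-1 (difference -1.32, SE 0.111, 2.50-fold lower, adjusted p = 0.00380 from limma). SMN1, the protein lost in human spinal muscular atrophy and the partner of GEMIN2, differed by -0.48 (adjusted p = 0.0126), GEMIN6 by -0.41 (adjusted p = 0.0462, and 0.0839 with the culture notes as a block) and WDR77, of the complex that methylates Sm proteins, by -0.71. In the other direction, CLNS1A and STRAP, which also take part in Sm protein handling and snRNP assembly, were called higher by 0.25 and 0.50, the first of them not with the culture notes as a block (adjusted p = 0.106).

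Most genes of the list, 77 of 98, were not called. MBNL3, a muscleblind-like splicing regulator, had signals of 5.09, 5.47 and 5.17 in IPEC-J2, against 8.23, 8.28 and 7.74 in IPEC-1 (difference -2.84, SE 0.198, adjusted p = 0.00220 from limma). Its IPEC-J2 signals were below the level at which single arrays can be told from noise. The SR-related factors TRA2B and ZRANB2 differed by -0.56 and -1.02 (adjusted p = 0.02003 and 0.0121, and 0.0899 and 0.0852 with the culture notes as a block). The kinases CLK2 and CLK3, which phosphorylate SR proteins, differed by -0.53 and -0.42, and the call of CLK2 was lost with that block (adjusted p = 0.0725). TRA2A and CELF2 lay above all IPEC-1 arrays without a call (adjusted p = 0.0658 and 0.0625). The peptidyl-prolyl isomerase PPIL3 was called higher by 0.86 (adjusted p = 0.00864) and the chaperone HSPA8 by 0.57 (adjusted p = 0.0465). Of the 16 lower genes, 3 were lower by more than 2-fold, namely MBNL3, GEMIN2 and ZRANB2.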

How the data were processed

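RNA of 3 IPEC-J2 and 3 IPEC-1 cultures was hybridised to Affymetrix Porcine Genome Arrays. The authors deposited log2 signals per probe set, made with GCOS 1.1.1 and PLIER (submitters' processing notes), with global scaling to a common target signal, background correction, normalization and summary over probes. Which normalization followed the scaling, and the base of the logarithm, are not given in the sources used here. The base was taken from the floor of exactly 4 (16 on the linear scale) and the range of the values. Of 23999 non-control probe sets, 10069 carried 1 gene symbol in the platform annotation, 198 carried several and 13732 none. Log2 values were averaged per symbol over probe sets, giving 6765 genes, 1252 of them at the floor on every array and kept in the fit.

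Differences were tested in limma 3.58.1 (R 4.3.3; lmFit, eBayes) without a block. P-values were adjusted by Benjamini and Hochberg's method over the whole table, and 0.05 was the threshold. Single values were compared by two-sided exact permutation tests. The script was tested on simulated data. Same-numbered replicates did not deviate together (r = -0.19, -0.288 and 0.05 over 4330 genes). Arrays sharing a culture note did (r = 0.193 and 0.405), and r was 0.259 for the remaining pair, which no label pairs. Deviations were taken from the line means and sum to 0 within a line, so these r values depend on one another. The value of the remaining pair is therefore no separate evidence that its arrays belong together. The culture note block leaves 2 residual degrees of freedom rather than 4. The limma p-values set the difference between the lines against the spread between cultures of 1 line each. The number of arrays limits the precision.

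The members, the gene lists and the tests were chosen with earlier results of these data known. Named were, per role group and direction, up to 4 called members with the largest difference, both members of compared pairs with 1 call, and members at the floor in 1 line only. Other genes were named after their values were seen. The alternatives tried were the brightest probe set in place of the mean, centring on the 75th percentile, quantile normalization, a pseudocount of 16, filters on floor values, eBayes with trend, the methods' t-test, blocks and leaving out arrays. Symbols of all 106 members matched the RefSeq gene table.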

Additional observations from a re-analysis of the deposited data

How the results depend on the processing

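Direction was checked for 124 genes, the 103 measured members and the 21 called among the other splicing genes. Of these, 1 reversed with a call: RBM19 differed by 0.84, and by -0.46 with its brightest probe set (adjusted p = 0.0113 from limma). Its dimmer probe set was at the floor on 2 IPEC-1 arrays. Over the alternatives, the 34 genes named by the rule gave 612 values. Among them, 483 kept their side of the threshold, 115 were no longer called, 14 became called and 0 reversed with a call. The 483 include changes of sign without a call in either fit, such as HNRNPA1, at 0.05 and, after quantile normalization, -0.002. SF3B6 and HNRNPD were called under all 18 alternatives run on them.

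Of the members, 26 were called lower, against 44 by the methods' t-test unadjusted, 12 with the title number as a replicate block, 13 with the culture notes as a block, 8 with both arrays of note B left out, and 10 to 26 with 1 array left out. Of all 6765 genes, 11.2% were called lower, against 17.1%, 4.79%, 5.6%, 5.87% and 6.16% to 8.46% in the same order. Higher calls numbered 2, against 1 with the brightest probe set per gene, 1 with trend and robust eBayes, 6 by the methods' t-test unadjusted and 1 after Benjamini-Hochberg, 0 with the culture note block, 1 with note B left out and 1 to 3 with 1 array left out. The higher share of all 6765 genes was 9.46%, against 11.2%, 8.78%, 13.6%, 8.81%, 5.38%, 6.33% and 5.25% to 9.06% in that order. The median difference of -0.33 was -0.24 with note B left out, -0.42 within note B and -0.39 to -0.28 with 1 array left out. Of the other splicing genes, 16 were called lower, against 27 with the brightest probe set, 33 by the t-test unadjusted, 4 with the title number block, 9 with the culture note block, 7 with note B left out and 9 to 14 with 1 array left out. Of these genes, 5 were called higher, against 8 after quantile normalization, 10 by the t-test unadjusted, 0 with the title number block and 2 to 5 with 1 array left out. Of the members' probe sets, 32 were called lower, against 5 with the title number block, 7 with the culture note block and 9 to 22 with 1 array left out. Of the probe sets, 2 were called higher, against 1 with floor probe sets left out, 0 with either block and 0 to 5 with 1 array left out. No share of all probe sets is given for these alternatives.

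Leaving genes at the floor on every array out of the fit gave the same counts of 26 lower and 2 higher, but 19 and 1 of these were shared with the fit that kept them. Centring on the 75th percentile gave 25 and 2, of which 19 and 1 were shared, and moved the median of all measured genes to 0.00 and that of the members to -0.28. The smallest exact permutation p with 3 arrays in each line is 0.1. The title number block does not rest on a pairing of the cultures.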
